A study of Mus musculus with 4 samples.

Results

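The genes described here encode 9 surface molecules with which lymphocytes enter lymph nodes and are held in them: the selectin ligand Selplg, the integrin chains Itga4, Itgb1, Itgb7, Itgal and Itgb2, the integrin ligands Icam1 and Icam2, and the hyaluronan receptor Cd44. They were chosen by symbol, with earlier results of these data known, and all 9 were found among the 23418 gene symbols of the count table. Expression was measured by RNA sequencing of B cells purified from cervical lymph nodes, with 2 libraries of BL/10 control mice and 2 of NOD.B10 mice. NOD.B10 is a congenic strain, NOD with the H2 region of C57BL/10, and it develops a disease of the salivary and tear glands that serves to study Sjögren's disease. The genotype labels give the strain names alone. No treatment is named for either strain, and age, sex, the sort markers and pooling of animals are not given in the sources used here. Nothing in the labels says that replicates are separate mice, so p-values measure only how these 4 samples spread, and that spread may be technical.

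A lymphocyte slows on the vessel wall of a lymph node through selectins and their carbohydrate ligands, stops when its integrins are switched to a high-affinity state, and then crosses the endothelium. Integrins are pairs of an alpha and a beta chain. Itga4 pairs with Itgb1 to bind VCAM-1 and fibronectin and with Itgb7 to bind MAdCAM-1, the vascular addressin of gut-associated tissue, while Itgal pairs with Itgb2 to form LFA-1, the receptor for ICAM-1 and ICAM-2. On B cells the integrins bound to ICAM-1 and VCAM-1 also hold the cell at the surface of antigen-presenting and follicular dendritic cells.

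Of the 9 genes, 5 were lower in the NOD.B10 libraries (Cd44, Selplg, Itgb1, Itga4 and Icam2) and 0 were higher (edgeR quasi-likelihood test, Benjamini-Hochberg adjusted over 13075 genes, threshold 0.05). The other 4, Itgb7, Itgal, Itgb2 and Icam1, did not pass the test. Over all genes tested, 15.2% were called in either direction, 6.55% higher and 8.63% lower. Each of the 9 had an average level above that of at least 72.9% of the genes tested. Changes are easier to call at such levels, and the share called among genes of similar level was not computed. The falls were modest, from 24.4% for Icam2 to 46.4% for Cd44. The median log2 fold change, NOD.B10 over BL/10, was −0.40 over the 9 genes and −0.0033 over all genes tested. All 9 passed the filter on low counts, with between 999 and 26872 reads per gene and library. In bulk libraries such as these, fewer cells of a type and less RNA per cell cannot be told apart. Reads of each strain were aligned to the same genome build, mm10. Whether NOD.B10 reads align to it as well as BL/10 reads was not tested.

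The libraries held 19328803 to 29372751 reads each. The B cell identity of the samples was checked on 12 markers, whose summed level was 10424 to 10687 CPM (reads per 1000000 reads of the scaled library) in BL/10 and 10809 to 10835 CPM in NOD.B10, and 1 of them, Pou2af1, was called (lower), except with NOD.B10 replicate 1 or 2 left out (adjusted p = 0.0778 and 0.192). Many markers of other cells were lower in NOD.B10, though not all. All 19 T cell markers fell, from summed levels of 545 and 648 CPM in the BL/10 libraries to 60.8 and 60.3 CPM in NOD.B10, of which Lck alone gave 38.3 and 45.9 CPM, and no T cell marker was at 0 reads in both NOD.B10 libraries. Of natural killer cell markers 6 of 6 tested fell, of macrophage, monocyte and dendritic cell markers 5 of 12, and of neutrophil and mast cell markers 5 of 6, while 1 of 2 stromal and endothelial markers was higher. Their summed levels in BL/10 and NOD.B10 were 15.3 to 28.1 against 2.85 to 3.92 CPM, 128 to 140 against 41.7 to 57.6 CPM, 6.08 to 8.99 against 0.509 to 0.570 CPM, and 2.97 to 4.38 against 2.47 to 3.68 CPM. In both NOD.B10 libraries 5 of 10 natural killer cell markers, 7 of 11 neutrophil and mast cell markers and 6 of 12 stromal and endothelial markers were at 0 reads. Some of these were at or near 0 in BL/10 too. Emcn and Ccl19 had 0 reads in all 4 libraries, and in BL/10 Pdpn had 0 and 2 reads and Ms4a2 4 and 4, while Klrd1 had 58 and 75. Klrd1, Klrk1, Kit and Mcpt4 passed the filter on low counts only through their BL/10 reads. Pdgfrb, the stromal marker that was higher, passed only through NOD.B10. Sparse markers low in both strains were not tested, so the counts of tested markers that fell or rose were partly fixed by the filter. Of the macrophage, monocyte and dendritic cell sums, Apoe alone gave 81.0 and 80.8 CPM in BL/10 and 16.7 and 17.6 CPM in NOD.B10. In that list 7 tested markers were not called, among them C1qa, C1qb and Zbtb46 (log2 fold change −0.02, −0.002 and 1.00). T cells and myeloid cells carry most of the 9 adhesion molecules too. The part of these cells in the falls given below was not tested.

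**Figure D1:**
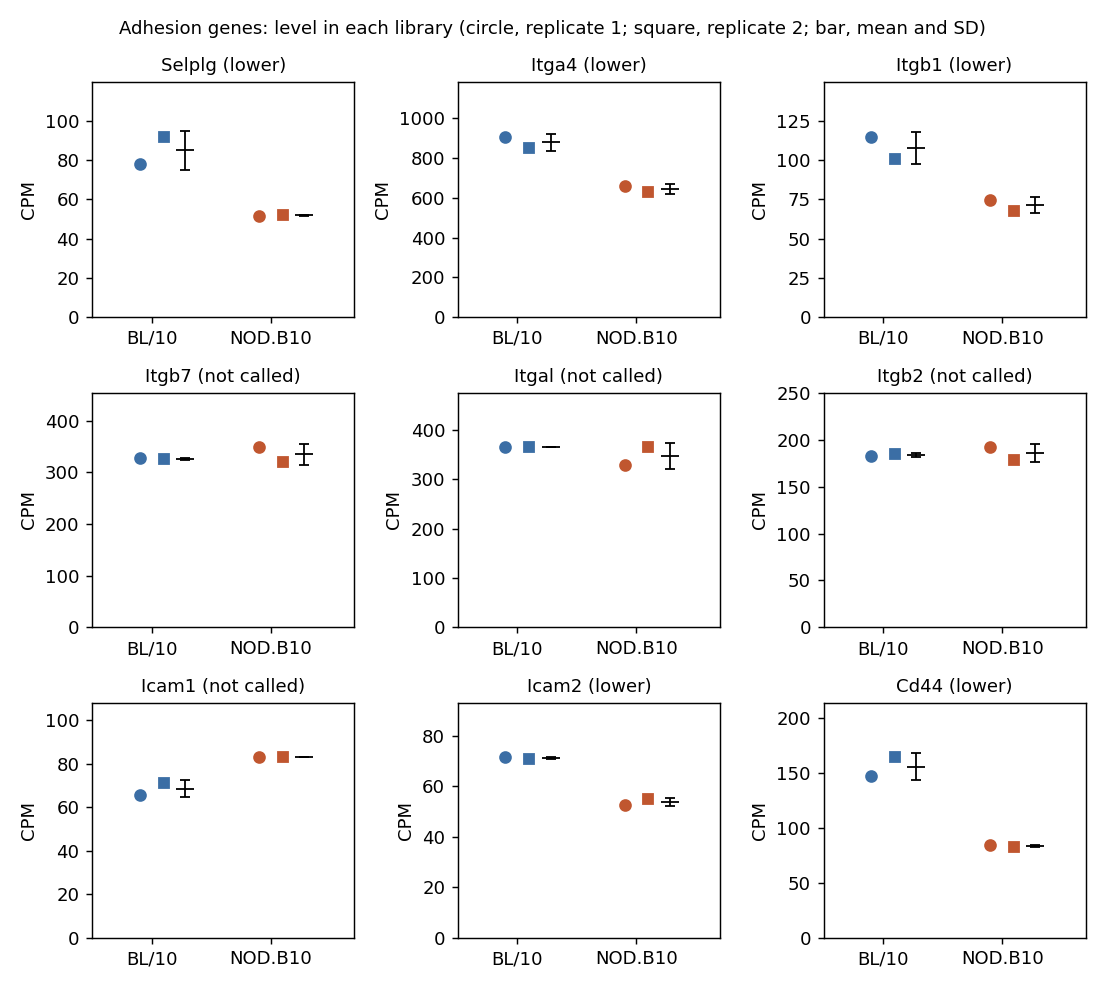
Level of each of the 9 genes in CPM (y axis, from 0) in the 2 BL/10 and 2 NOD.B10 libraries, with the mean and SD of each strain as a bar beside the points and the call of the test in each title. The strains do not overlap for Selplg, Itga4, Itgb1, Icam2, Cd44 and Icam1, and they overlap for Itgb7, Itgal and Itgb2.

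Selplg (chromosome 5, 113817798 to 113832528 on GRCm38, the assembly behind mm10) encodes PSGL-1, the main ligand of P-selectin, which also binds E-selectin. It stood at 78.1 and 92 CPM in the BL/10 libraries and at 51.8 and 51.8 CPM in the NOD.B10 libraries. Both NOD.B10 libraries were below both BL/10 libraries. The mean went from 85.0 ± 9.85 to 51.8 ± 0.0555 CPM (SD, n = 2), a log2 fold change of −0.71 (SE 0.125) or 39.1% less (edgeR adjusted p = 0.00165).

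Cd44 (chromosome 2, 102811141 to 102901669) encodes the receptor for hyaluronan, which also carries selectin-binding sugars and is a marker of activated and memory lymphocytes. Its levels were 147 and 165 CPM in BL/10 and 84.1 and 82.7 CPM in NOD.B10, with no overlap. This was the largest fall of the 9 genes in the test, with a log2 fold change of −0.90 (SE 0.115) and a 95% interval of the change from −54.9% to −36.4% (edgeR adjusted p = 1.22e-04). The absolute log2 fold change was above that of 83.9% of all genes tested. Cd44 is spliced into many forms, and gene counts do not separate them.

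The α4 integrin chain and one of its 2 partners fell, and its other partner did not pass the test. Itga4 (chromosome 2, 79255426 to 79333114) stood at 907 and 849 CPM in BL/10 and at 660 and 627 CPM in NOD.B10. That is 26.7% less, with a log2 fold change of −0.45 (SE 0.0974, edgeR adjusted p = 0.00695), and the strains did not overlap. With NOD.B10 replicate 2 left out the call was lost at a log2 fold change of −0.41 (adjusted p = 0.0631). An exon of Cerkl, transcribed from the opposite strand, overlaps an exon of Itga4, and the strand setting of the counting is not given in the sources used here. Cerkl itself had 62 to 109 reads per library.

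Itgb1 (chromosome 8, 128685654 to 128733579), the β1 chain that pairs with many alpha chains, also fell. It went from 115 and 101 CPM in BL/10 to 74.8 and 67.7 CPM in NOD.B10, with no overlap. The log2 fold change was −0.60 (SE 0.122), or 33.9% less (edgeR adjusted p = 0.00459). Whether its change differs from that of Itga4 was not tested.

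Itgb7 (chromosome 15, 102215994 to 102233405), the β7 chain, was at 327 and 325 CPM in BL/10 and at 349 and 320 CPM in NOD.B10, so the strains overlapped. The fitted difference was 2.54% with a 95% interval from −11.9% to 19.3% (edgeR adjusted p = 0.878). A fall as large as the one fitted for Itga4 or Itgb1 lies outside that interval.

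The 250 bases before the start used in the RefSeq promoter windows are shown for Itga4, Itgb1 and Cd44, each called lower, and for Icam1, which did not pass the test and had a higher mean in NOD.B10. RefSeq (GRCm38.p6) gave a window for 5 of the 9 genes. The fifth, of Itgb7, overlaps an annotated exon of Itgb7 and is not printed, and it held 0 matches to the motifs searched. The end of the Cd44 window lies just inside the RefSeq gene span given above, so the start it was taken from is not the outermost one. Capitals mark matches on either strand to the Sp1 GC box GGGCGG or the ETS core CCGGAA, which did not overlap each other. The windows are chr2:79255176-79255425 (plus strand) for Itga4, chr8:128685404-128685653 (plus strand) for Itgb1, chr2:102901666-102901915 (minus strand) for Cd44 and chr9:21015690-21015939 (plus strand) for Icam1.
Itga4: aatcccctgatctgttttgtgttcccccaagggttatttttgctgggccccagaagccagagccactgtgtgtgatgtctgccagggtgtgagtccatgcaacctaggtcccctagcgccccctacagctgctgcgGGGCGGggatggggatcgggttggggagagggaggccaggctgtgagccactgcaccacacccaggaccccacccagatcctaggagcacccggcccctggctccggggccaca
Itgb1: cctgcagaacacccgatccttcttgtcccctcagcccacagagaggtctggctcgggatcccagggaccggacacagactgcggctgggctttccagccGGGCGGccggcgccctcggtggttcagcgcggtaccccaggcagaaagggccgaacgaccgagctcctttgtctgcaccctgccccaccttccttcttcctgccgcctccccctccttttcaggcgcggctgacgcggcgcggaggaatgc
Cd44: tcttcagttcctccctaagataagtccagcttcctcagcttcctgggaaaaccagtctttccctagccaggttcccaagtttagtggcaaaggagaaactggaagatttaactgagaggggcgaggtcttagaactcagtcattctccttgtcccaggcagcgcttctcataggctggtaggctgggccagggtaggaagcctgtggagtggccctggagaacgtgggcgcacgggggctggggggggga
Icam1: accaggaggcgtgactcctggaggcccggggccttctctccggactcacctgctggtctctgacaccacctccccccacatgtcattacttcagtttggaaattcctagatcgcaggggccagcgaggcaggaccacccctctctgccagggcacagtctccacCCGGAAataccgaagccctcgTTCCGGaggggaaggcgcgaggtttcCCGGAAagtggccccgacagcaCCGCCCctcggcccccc
Itga4, Itgb1 and Icam1 each held 1 GC box, a motif found in 32.7% of all 32851 RefSeq windows of this length, and Cd44 held 0. Icam1 held 3 ETS cores, which occur in 12% of all windows, and the other 3 held 0. The TATA box TATAAA, the octamer ATTTGCAT and the NF-kB consensus GGGRNYYYCC matched none of the 4 windows. They matched 12.4%, 1.6% and 5.0% of all windows. In the consensus R is A or G, Y is C or T and N is any base. Only exact matches were counted, so a window without a match may still hold a site that departs from these letters. Selplg and Icam2, also called lower, had no window. Of the 3 genes called lower that had one, 2 held the GC box, and so did Icam1. Such matches describe letters and do not show binding.

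**Figure D2:**
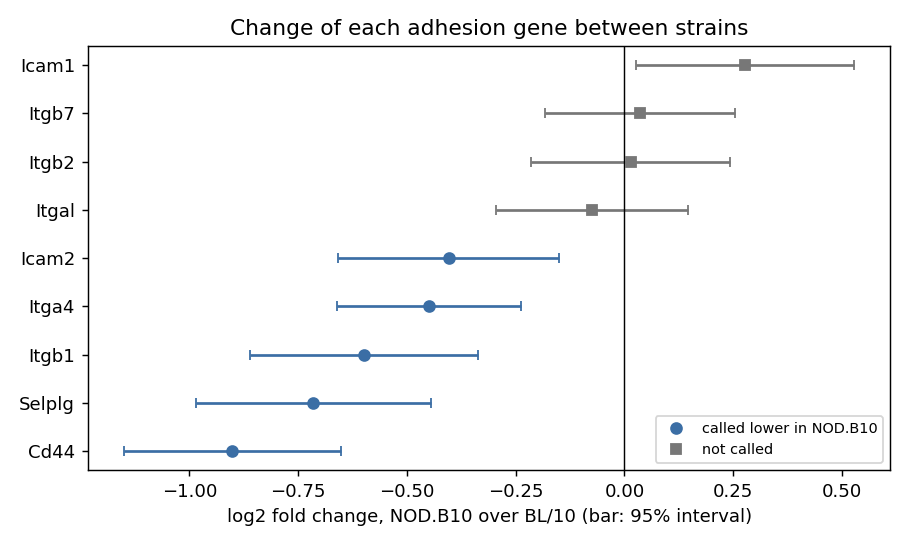
Log2 fold change of each of the 9 genes, NOD.B10 over BL/10 (x axis), with its 95% interval as a bar. The 5 genes called lower lie between −0.90 for Cd44 and −0.40 for Icam2, and the intervals of Itgb7, Itgb2 and Itgal include 0. The interval of Icam1, from 0.03 to 0.53, lies above 0. Intervals are not adjusted for the number of genes tested, while the calls are, and Icam1 was not called.

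LFA-1 showed no called change in either chain. Itgal (chromosome 7, 127296139 to 127335137), its α chain, was at 366 and 366 CPM in BL/10 and at 329 and 366 CPM in NOD.B10. The first NOD.B10 library was the lowest and the second matched BL/10. The log2 fold change was −0.07 with a 95% interval from −0.29 to 0.15 (edgeR adjusted p = 0.717). Itgb2 (chromosome 10, 77530329 to 77565708), the β2 chain shared by all leukocyte β2 integrins, was at 183 and 185 CPM in BL/10 and at 193 and 179 CPM in NOD.B10. Its values overlapped, with a log2 fold change of 0.01 and a 95% interval from −0.21 to 0.24 (edgeR adjusted p = 0.954).

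The ligands of LFA-1 had fitted changes of opposite sign. Icam2 (chromosome 11, 106377656 to 106388139), a ligand present without stimulation, fell from 71.5 and 70.8 CPM in BL/10 to 52.6 and 55.0 CPM in NOD.B10, with no overlap. The log2 fold change was −0.40 (SE 0.118), or 24.4% less (edgeR adjusted p = 0.0336). This call was the least stable of the 5: the edgeR adjusted p was 0.0613 with BL/10 replicate 1 left out, 0.163 with NOD.B10 replicate 1 left out and 0.0852 with NOD.B10 replicate 2 left out, with log2 fold changes between −0.44 and −0.38. Icam1 (chromosome 9, 21015940 to 21028814), a ligand induced by inflammatory signals and NF-kB, was at 65.7 and 71.2 CPM in BL/10 and at 82.9 and 83.0 CPM in NOD.B10. Both NOD.B10 libraries were above both BL/10 libraries. It did not pass the test over all genes (log2 fold change 0.28, SE 0.116, edgeR adjusted p = 0.141). An antisense gene, Gm47079, overlaps an exon of Icam1. In all, 6 of the 9 genes did not overlap between strains, 5 of them lower, and over all genes tested 55.6% did not overlap and 27.7% did so with the lower values in NOD.B10.

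Levels of different genes were compared as CPM per 1000 bases of the gene length in the deposited table. In BL/10, Itgb7 was the highest at 122 ± 0.598 (SD, n = 2), followed by Itga4 at 89.3 ± 4.23, Itgal at 70.0 ± 0.0398, Itgb2 at 64.3 ± 0.650, Icam2 at 62.3 ± 0.439 and Selplg at 32.7 ± 3.78. Cd44, Icam1 and Itgb1 came last at 27.6 ± 2.21, 27.0 ± 1.53 and 25.7 ± 2.40, and neighbours among these 3 overlapped between libraries. In NOD.B10, Itgb7 was again the highest at 125 ± 7.78, while Itgal, Itga4 and Itgb2 at 66.5 ± 5.05, 65.4 ± 2.38 and 64.9 ± 3.38 overlapped as neighbours. Icam2 followed at 47.1 ± 1.5, Icam1 at 32.7 ± 0.00402, Selplg at 19.9 ± 0.0213, Itgb1 at 17.0 ± 1.19 and Cd44 at 14.8 ± 0.177.

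The ratio of β7 to β1 RNA was higher in both NOD.B10 libraries. Per base of gene length, Itgb7 over Itgb1 was 4.47 and 5.06 in the BL/10 libraries and 7.32 and 7.41 in the NOD.B10 libraries. Itga4 over Itgb7 was 0.754 and 0.710 in BL/10 and 0.514 and 0.533 in NOD.B10, so the α4 chain was lower relative to β7. Itga4 over Itgb1 was 3.37 and 3.59 against 3.76 and 3.95. Strains did not overlap in any of these 3 ratios. Among single genes tested, 55.6% did not overlap either. The 3 ratios are built from Itga4, Itgb1 and Itgb7 alone, so they restate the changes of these genes given above.

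For LFA-1, Itgal over Itgb2 was 1.10 and 1.08 in BL/10 and 0.936 and 1.12 in NOD.B10, which overlapped. The ratio of the ligands, Icam1 over Icam2, was 0.413 and 0.452 in BL/10 and 0.709 and 0.678 in NOD.B10. These ratios are descriptions of each library, and the differences between strains in them were not tested.

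**Figure D3:**
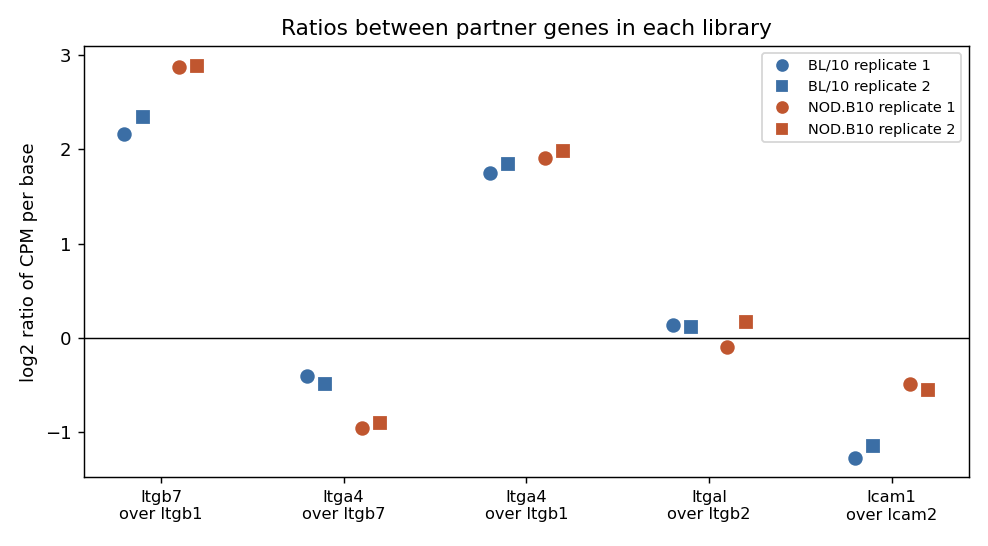
Log2 ratio of CPM per base of gene length (y axis) for 5 pairs of genes in each of the 4 libraries. Both NOD.B10 libraries lie above both BL/10 libraries for Itgb7 over Itgb1, Itga4 over Itgb1 and Icam1 over Icam2 and below them for Itga4 over Itgb7, while Itgal over Itgb2 overlaps.

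Genes that work with these 9 were counted in 5 lists on adhesion. These hold 113 symbols of the count table. The filter left 92 genes, and 28 of these (30.4%) were called, 11 higher and 17 lower, against 15.2% over all genes tested. Without the first NOD.B10 library 5 were called higher. The median log2 fold change over the 92 was −0.01. The lists were chosen with earlier results of these data known, and Cd96 and Cd226, among others, passed the filter only through BL/10. The share called in the lists therefore does not show that adhesion genes changed more often than other genes. T cell markers fell in the same libraries, as given above, and several genes named below are known from T and natural killer cells.

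Among selectins and the enzymes that build their ligands, 2 of 15 tested genes rose, 3 fell and 10 were not called, with a median log2 fold change of −0.21. Spn, the sialomucin CD43 of T cells and other leukocytes, fell from 85.9 ± 8.85 to 15.6 ± 4.07 CPM (log2 fold change −2.47, edgeR adjusted p = 3.39e-06). St3gal4, a sialyltransferase that caps selectin ligands, fell 8.71-fold, from 171 and 126 reads in BL/10 to 15 and 12 in NOD.B10 (edgeR adjusted p = 2.79e-04). Gcnt1, which builds the branched O-glycans that PSGL-1 needs to bind selectins, was higher at 145 ± 1.39 CPM against 76.7 ± 1.06 CPM in BL/10 (log2 fold change 0.92, SE 0.111, edgeR adjusted p = 7.66e-05), while Selplg itself fell. Fut7, the fucosyltransferase that completes these ligands, had 9 and 8 reads in BL/10 and 0 in NOD.B10 and did not pass the filter. It was picked after its values were seen.

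Adam17 encodes a protease that sheds adhesion molecules and cytokines from the cell surface. Adam17 rose by a log2 fold change of 0.36 (edgeR adjusted p = 0.0428), and it missed the threshold with BL/10 replicate 1 left out (adjusted p = 0.0935) and with NOD.B10 replicate 1 or 2 left out (adjusted p = 0.0923 and 0.275).

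Of the other integrin chains 2 of 16 tested rose, Itgb3 and Itga3, and 5 fell, Itgae, Itgax, Itga5, Itga6 and Itgb8, with a median log2 fold change of −0.60. Itgb3, the β3 chain of the vitronectin receptor, rose from 39.3 and 45.5 CPM in BL/10 to 195 and 183 CPM in NOD.B10, 4.45-fold (log2 fold change 2.15, SE 0.124, edgeR adjusted p = 7.13e-08). This was the highest log2 fold change of the 16. Itgae, the αE chain that pairs with Itgb7 and binds E-cadherin, fell from 13.3 ± 4.53 to 2.16 ± 0.614 CPM (edgeR adjusted p = 1.25e-04). Itgax, a dendritic cell chain that pairs with Itgb2, fell from 68 and 129 reads to 3 and 6, and Itga5, the fibronectin receptor chain that pairs with Itgb1, from 67 and 30 reads to 1 and 3 (edgeR adjusted p = 5.48e-04 and 0.00379). With BL/10 replicate 1 left out, Itga5 lost its call (adjusted p = 0.0744). Its log2 fold change of −4.28 became −5.05 with NOD.B10 replicate 2 left out, and without the second BL/10 library the log2 fold change of Itgax went from −4.19 to −3.54. The calls of the sparse Itga3 and Itgb8 were also lost with 1 library left out, Itga3 with BL/10 replicate 2 or NOD.B10 replicate 1 (adjusted p = 0.149 and 0.112) and Itgb8 with BL/10 replicate 1 or 2 or NOD.B10 replicate 2 (adjusted p = 0.21, 0.083 and 0.133).

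Of 33 tested genes that switch integrins on or off, act in their signalling or link them to the cytoskeleton, 5 rose and 4 fell, with a median log2 fold change of 0.04. Fyb, the adaptor ADAP of T cells and myeloid cells, fell 20.8-fold, from 20.3 ± 9.19 to 0.987 ± 0.289 CPM (edgeR adjusted p = 4.10e-05). Skap1, its partner in T cells, fell 2.55-fold (edgeR adjusted p = 0.00326), and Rap1gap2, which switches the integrin activator Rap1 off, fell from 31.6 ± 3.10 to 6.76 ± 2.02 CPM (edgeR adjusted p = 1.58e-05). Vcl, which encodes the talin-binding linker vinculin, rose from 55.7 and 55.6 CPM in BL/10 to 98.4 and 93.5 CPM in NOD.B10 (log2 fold change 0.79, SE 0.115, edgeR adjusted p = 3.95e-04).

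Of 18 other adhesion molecules tested 1 rose and 4 fell, with a median log2 fold change of 0.002. L1cam, an adhesion molecule of the immunoglobulin superfamily, rose from 24.5 ± 4.17 to 56.9 ± 2.09 CPM (log2 fold change 1.21, edgeR adjusted p = 8.54e-05). Cd9, a tetraspanin that associates with integrins and marks marginal zone, B-1 and plasma cells, fell from 10.6 ± 0.218 to 1.69 ± 0.396 CPM (edgeR adjusted p = 4.92e-05). Cd96 and Cd226, nectin-binding receptors of T and natural killer cells, had 346 and 378 reads and 118 and 200 reads in BL/10, against 0 in both NOD.B10 libraries for Cd96 and 2 and 0 for Cd226. Against 3 reads over the NOD.B10 libraries, Cd96 was at least 197-fold lower. The fourth gene that fell was Vcam1, a call lost with BL/10 replicate 1 left out (adjusted p = 0.0645).

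In the list of hyaluronan genes and the proteins that tie CD44 to actin, 1 of 10 tested genes rose and 1 fell, with a median log2 fold change of −0.09. Nf2, which encodes merlin, a protein that binds the CD44 tail, was higher by a log2 fold change of 0.46 (edgeR adjusted p = 0.0178), and missed the threshold with BL/10 replicate 2 left out (adjusted p = 0.0692) or NOD.B10 replicate 1 left out (adjusted p = 0.0856). Hmmr, a hyaluronan-binding protein of the mitotic spindle, fell from 82 and 56 reads to 10 and 3 (edgeR adjusted p = 0.00817), a call lost with BL/10 replicate 1 left out (adjusted p = 0.0551), and its log2 fold change of −3.03 became −4.41 with NOD.B10 replicate 1 left out and −2.26 with NOD.B10 replicate 2 left out.

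**Figure D4:**
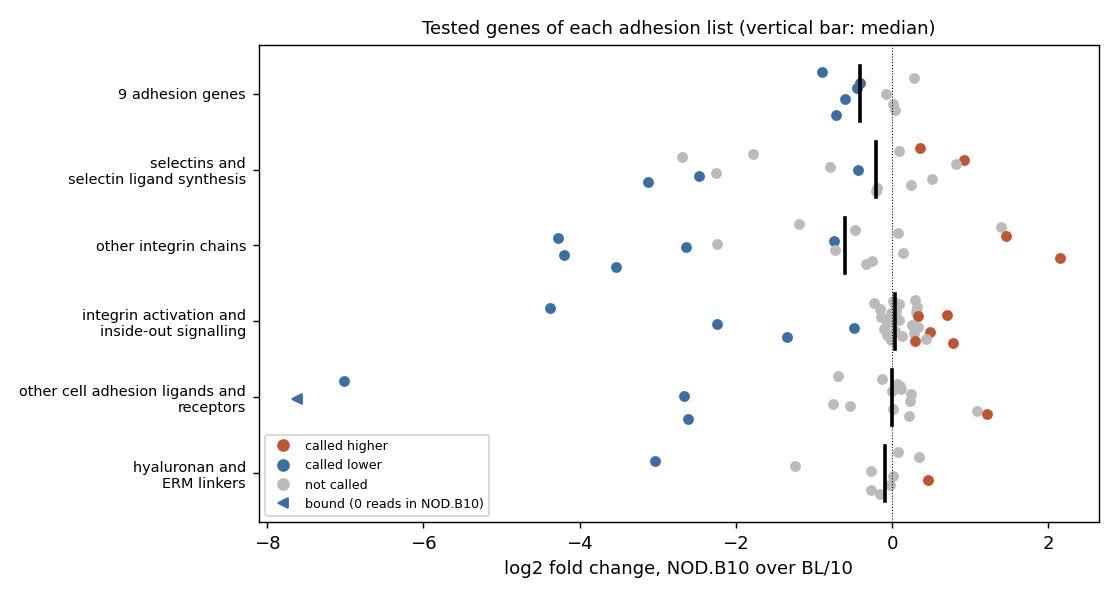
Log2 fold change, NOD.B10 over BL/10 (x axis), of the 9 adhesion genes and of the tested genes of 5 further adhesion lists (rows), coloured by call, with the median of each row as a vertical bar. The triangle is Cd96, whose value is a bound, and Itgb3 at 2.15 is the farthest point to the right.

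Patterns over the 4 libraries were compared with those of the tested genes in these lists by the root mean square difference of log2 CPM, each gene centred on its own mean. Among 88 genes with reads in every library, the nearest to Itgb7 was the tetraspanin gene Cd37 (difference 0.0168), to Itgb2 the actin linker gene Msn (0.0245), to Icam1 Rap1gds1 (0.0203) and to Itgal Ilk (0.0456). The genes that fell had more distant neighbours: Sele for Selplg (0.0866) and Cd44 (0.117), Hyal2 for Icam2 (0.0876) and Slc9a3r1 for Itga4 (0.110). Most list genes were not called, so a gene with a small change lies near many of them, and the distances partly restate the size of the fall. Within 0.1 lay 14 to 21 list genes for Itgb7, Itgal, Itgb2 and Icam1, and 0 to 2 for the genes that fell. Sele, the endothelial E-selectin gene, had 57 to 148 reads per library. With 4 libraries these distances are descriptions.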

How the data were processed

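The deposited values are raw counts of reads, 1 row per gene symbol with its length and 1 column for each of the 4 libraries, not normalised by the authors. Per the submitters' processing notes, HISAT2 2.1.0, SAMtools 1.3, Subread 1.6.5 and featureCounts were used, with build mm10. The annotation, strand setting and handling of reads with several alignments are not given in the sources used here.

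Columns were matched to samples by library name. All 23418 symbols entered the library sizes. The strains were compared with edgeR 4.0.16 (R 4.3.3; quasi-likelihood test, robust, two-sided, TMM), after filterByExpr (count minimum 10, total minimum 15), and p-values were adjusted by Benjamini-Hochberg over 13075 genes. CPM use TMM-scaled library sizes. The SE is the unshrunken log2 fold change over the root of the F statistic, and 95% intervals use it with the degrees of freedom of the test. A group at 0 reads was set to 3 reads over the group. The procedure was also run on counts simulated with the spread of these libraries. That run cannot speak to how the replicates were made or to cell content, and no result given here rests on it.

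The 9 genes and all lists were chosen with earlier results of these data known. Named are the 9 genes, up to 4 called genes per list with the smallest adjusted p (up to 2 by unadjusted p in a list with no call), and the nearest gene to each of the 9. 1 gene under this rule is not reported here. Other genes were picked after their values were seen. Alternatives were RLE, upper-quartile and B cell marker scaling, DESeq2 1.42.0, limma-voom (limma 3.58.1), 2 other filters (none, or at least 50 reads in 2 libraries), non-robust dispersion, a replicate block, and leaving out each library. Overlaps of exons were read from GENCODE M21, and coordinates and promoters from RefSeq.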

Additional observations from a re-analysis of the deposited data

How the results depend on the processing

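Cd44, Selplg and Itgb1 were called lower in all 13 alternatives, with log2 fold changes from −0.98 to −0.82, −0.83 to −0.60 and −0.70 to −0.50. Of the 9 genes, 5 were called in every setting that kept all 4 libraries, and 3 to 5, all lower, with 1 library left out. The fewest, 3, remained without NOD.B10 replicate 2, where Itga4 (log2 fold change −0.41, adjusted p = 0.0631) and Icam2 missed the threshold. Over the left-out libraries Icam2 ranged from −0.44 to −0.38 and Itga4 from −0.50 to −0.40. Signs changed for 4 genes that were not called, without NOD.B10 replicate 1 (without BL/10 replicate 1 too for Msn): over the left-out libraries Itgb7 ranged from −0.0387 to 0.0984, Itgb2 from −0.0502 to 0.0663, Cd37 from −0.0241 to 0.127 and Msn from −0.0312 to 0.0441. With B cell marker scaling Itgb2 was at −0.0223 and Msn at −0.0252. Adam17 missed the threshold with B cell marker scaling (adjusted p = 0.0725), non-robust dispersion (adjusted p = 0.0518) and the replicate block (adjusted p = 0.0616). Of the genes picked after their values were seen, Tln1 missed it in 6 of the settings with all 4 libraries (adjusted p from 0.0511 to 0.095), Ptk2b with B cell marker scaling and the replicate block (adjusted p = 0.0549 and 0.0609), Rasgrp2 with limma-voom and the block (adjusted p = 0.052 and 0.05004) and Itgb8 with DESeq2 and the block (adjusted p = 0.0579 and 0.051). Adhesion list genes called higher numbered 5 to 11 with 1 library left out. The cause was not tested. The replicate block left 5 of the 9 genes called, 25 adhesion list genes and 1802 genes in all. Replicate numbers pair nothing in the labels, and deviations of same-numbered libraries had a correlation of −0.0141 across genes.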

Other observations

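Beside Vcl, 4 genes of the list on integrin activation and signalling were called higher in NOD.B10, and were picked after their values were seen. A place in this list does not say whether a gene promotes or restrains integrins. Tln1, which encodes talin, the protein that opens integrins from the inside, was at 1084 and 1127 CPM in BL/10 and at 1394 and 1325 CPM in NOD.B10 (log2 fold change 0.30, edgeR adjusted p = 0.0499). Ptk2b, the kinase PYK2 that acts downstream of integrins, was at 658 and 654 CPM against 819 and 832 CPM (log2 fold change 0.33, edgeR adjusted p = 0.0305). Ptk2, the related kinase FAK, was at 14.2 and 20.2 CPM against 28.7 and 27.2 CPM (log2 fold change 0.70, edgeR adjusted p = 0.023). Rhoh, a GTPase of blood cells, was at 219 and 190 CPM against 313 and 258 CPM (log2 fold change 0.48, edgeR adjusted p = 0.0172). In each of the 4 genes the strains did not overlap, and each call was lost with 1 or more libraries left out: Tln1 with BL/10 replicate 1 or NOD.B10 replicate 1 or 2 left out (adjusted p = 0.0548, 0.364 and 0.135), Ptk2b with NOD.B10 replicate 1 or 2 left out (adjusted p = 0.17 and 0.173), Ptk2 with BL/10 replicate 1 left out (adjusted p = 0.133) and Rhoh with BL/10 replicate 2 or NOD.B10 replicate 1 left out (adjusted p = 0.0546 and 0.221). Rasgrp2, an activator of Rap1, was lower (log2 fold change −0.48, edgeR adjusted p = 0.0389), with 294 and 216 CPM in BL/10 and 178 and 188 CPM in NOD.B10. It missed the threshold with BL/10 replicate 1 or NOD.B10 replicate 1 left out (adjusted p = 0.19 and 0.0605).

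Itga6, the α6 chain of a laminin receptor that pairs with Itgb1, was picked after its values were seen. It fell from 44.8 and 48.2 CPM in BL/10 to 31.4 and 24.0 CPM in NOD.B10 (log2 fold change −0.75, SE 0.156, edgeR adjusted p = 0.0055). The call was kept in all 13 alternatives. Alpha chains did not all fall: Itga3 was called higher (log2 fold change 1.46), though this call was lost with 1 library left out, as given above. The 16 other integrin chains tested, of which 5 fell and 2 rose, include beta chains such as Itgb3, which rose, and Itgb8, which fell.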
